A study of Chromochloris zofingiensis with 6 samples.

Results

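The plastid of a green alga is closed by an envelope whose inner membrane lets phosphorylated sugars and organic acids pass only through specific carriers. Genes annotated for such carriers were examined in *Chromochloris zofingiensis*, a freshwater green microalga that accumulates triacylglycerol and astaxanthin under stress. The 8 genes described are among 15037 listed in at least 1 library, and were taken by their annotated names. The set holds 2 triose phosphate/phosphate translocator genes (*TPT*), 4 phosphoenolpyruvate/phosphate translocator genes (*PPT*), 1 plastidic glucose transporter gene (*GlcT*) and 1 glutamate/malate translocator gene (*DiT2*). By identifier they are Cz06g08130.t1 and Cz03g25010.t1 (*TPT*), Cz02g06060.t1, Cz03g05140.t1, Cz13g17270.t1 and Cz16g04180.t1 (*PPT*), Cz01g07160.t1 (*GlcT*) and Cz01g17230.t1 (*DiT2*), and the suffix is left out from here on. All 8 were listed in every library and passed the filter on low values. The set was chosen with earlier results of these data known. It leaves out a further gene annotated *GlcT* and a partner gene of *DiT2*, both given below for comparison.

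In plants, TPT carries triose phosphate out of the chloroplast in exchange for inorganic phosphate, and so links photosynthesis or plastid glycolysis to the cytosol. PPT works in the opposite direction for phosphoenolpyruvate, which plastids use for aromatic amino acids and, after conversion to pyruvate, for fatty acids. GlcT of Arabidopsis releases glucose formed from starch breakdown. DiT1 and DiT2 of Arabidopsis are dicarboxylate translocators that act as a pair, 2-oxoglutarate entering for malate through DiT1 and glutamate leaving for malate through DiT2.

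The name of the set fits some genes better than others. In the study's annotation tables the carriers have a predicted location in the cell. A chloroplast location is predicted for 5 of the 8 genes, namely both *TPT* genes, *GlcT*, *DiT2* and the *PPT* gene Cz03g05140. The other 3 *PPT* genes are predicted elsewhere, Cz02g06060 and Cz13g17270 in the secretory pathway and Cz16g04180 in no named compartment. Location was not measured here, and these 3 genes are called *PPT* by their annotation.

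Strain ATCC30412 was grown to exponential phase in continuous light with air enriched to 1.5% CO2. The cells were washed, placed in Kuhl medium with 200 mM NaCl, and collected at re-inoculation (0 h, 3 libraries) or after 6 h (3 libraries). Poly-A RNA of each culture was sequenced, and the libraries of a time point are described as biological replicates. Cells held for 6 h without salt were not analysed here, so salt, time in fresh medium and handling cannot be told apart. In bulk RNA, fewer cells that express a gene and less of its RNA per cell cannot be told apart either.

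Levels are given as FPKM, fragments relative to the length of a gene and to the mapped fragments of its library, so that different genes can be compared per length. The summed FPKM of a library was 924660 to 1135980, and 14233 to 14697 genes were listed per library. How many fragments stand behind each FPKM is not known. The read totals that the study lists for the libraries are close to one another. The 6 h libraries varied more among themselves than the 0 h libraries (residual SD of 0.289 to 0.631 against 0.165 to 0.196 on the log2 scale), and 6 h replicates 1 and 3 stood furthest from their group mean.

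Differences between the times are log2 fold changes of 6 h over 0 h, computed on log2(scaled FPKM + 0.1) after dividing each library by a median-of-ratios factor. They were tested with limma (two-sided), with Benjamini-Hochberg adjustment over the 13886 genes whose FPKM averaged 1 or more at 0 h or 6 h. A gene was called where the adjusted p was below 0.05 and the log2 fold change was 1 or more in either direction, and "rose" or "fell" is used below only of called genes. By this rule 4 of the 8 transporter genes rose and 1 fell, against a background of 20.0% of all genes tested called higher and 26.6% called lower (46.6% in either direction). The median log2 fold change of the 8 genes was 1.05, and that of all genes tested was −0.04.

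The choice of scaling matters in these data, because the median over all genes moves with it. It was −0.34 without scaling and with upper-quartile scaling, and −0.47 with scaling to TPM (each library divided by its sum). Of all calls, 42.9% were higher with the median-of-ratios factor, 30.1% without scaling, 30.3% with upper-quartile scaling and 25.5% with TPM. The number of transporter genes called higher was accordingly 4, 3, 3 and 2, while 1 was called lower each time. In the same order, 2772, 1925, 1925 and 1624 of the 13886 genes tested were called higher. Those called lower were 3692, 4466, 4421 and 4738. Each scaling divides a library by 1 number and so shifts all genes together. By construction, each member's change measured from the median of all genes was therefore nearly the same under all 4 scalings. It was for example 2.60 to 2.61 for Cz06g08130 and 1.28 to 1.29 for Cz02g06060.

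**Figure D1:**
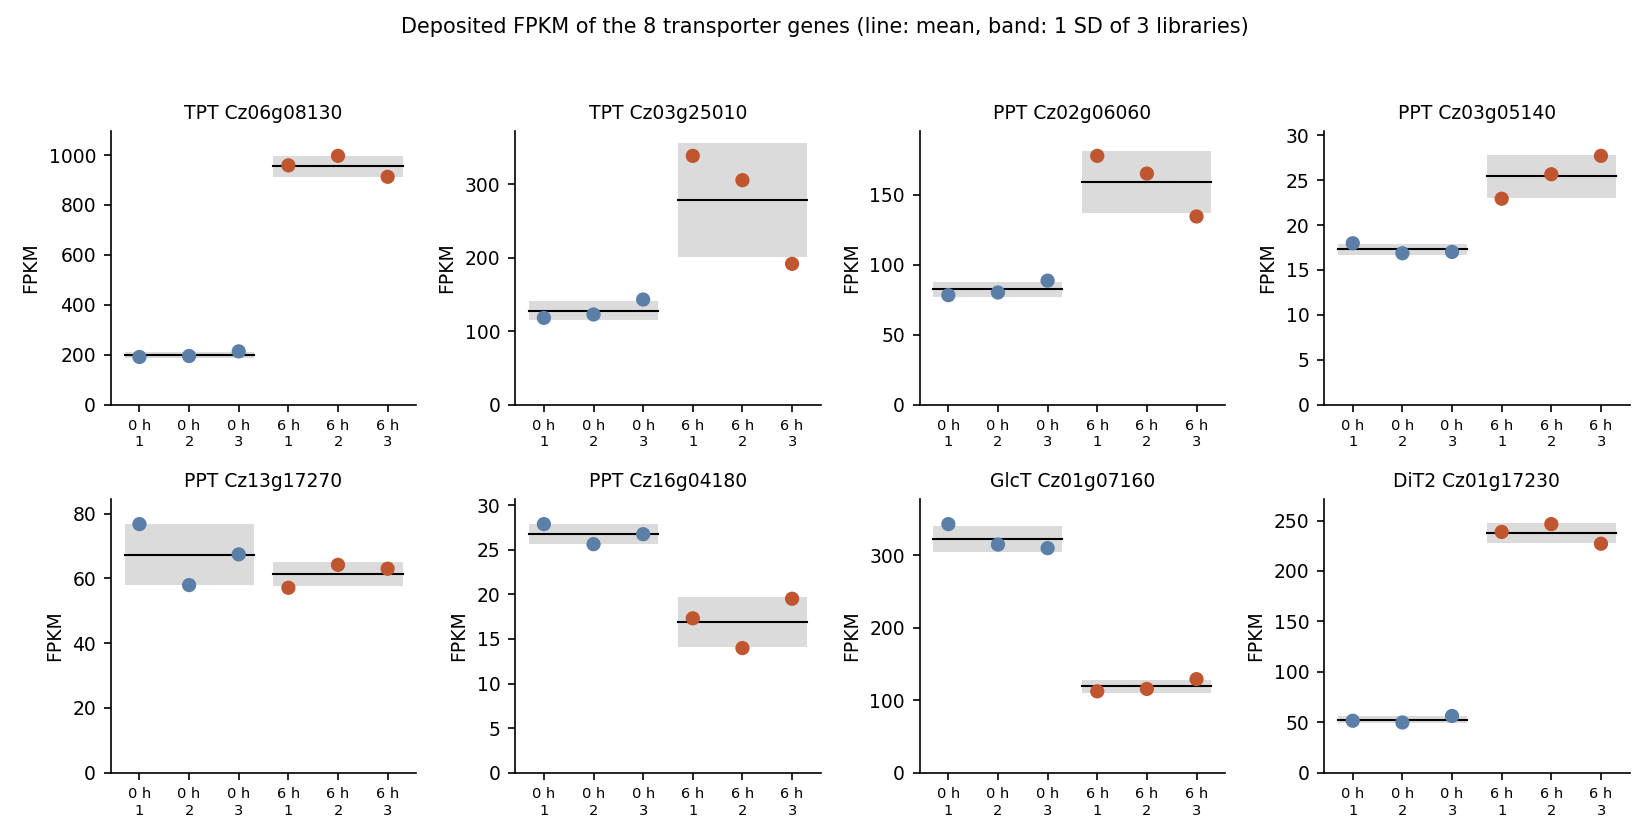
Deposited FPKM (vertical axis, from 0) of each transporter gene in the 3 libraries of 0 h (blue) and the 3 of 6 h (orange), with the mean as a line and 1 SD as a band. The times do not overlap for 7 of the 8 genes, *PPT* Cz13g17270 being the exception.

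The *TPT* genes, annotated as triose phosphate/phosphate translocators, both rose. Cz06g08130 had 191, 194 and 213 FPKM at 0 h and 959, 997 and 913 FPKM at 6 h. Every 6 h library lay far above every 0 h library, and the 3 libraries of a time agreed closely. The mean went from 199 ± 12.0 to 956 ± 42.0 FPKM (SD, n = 3), a ratio of 4.80. The log2 fold change was 2.57 (SE 0.11; adjusted p = 1.26e-05, limma), larger than that of all but 479 of the genes tested. Cz06g08130 was thereby the gene with the 615th highest mean level of 15037 at 0 h and the 173rd at 6 h.

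The other *TPT* gene, Cz03g25010, had 118, 123 and 143 FPKM at 0 h and 339, 306 and 192 FPKM at 6 h. Here 6 h replicate 3 was well below the other 6 h libraries, though still above the highest 0 h library. Its log2 fold change was 1.39 (SE 0.24; adjusted p = 0.00248, limma), with a 95% interval of 0.82 to 1.97 that spans the limit of 1. It was 1.66 without 6 h replicate 3 and 1.22 without 6 h replicate 1. Under TPM scaling it was 0.95 and Cz03g25010 was no longer called.

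Because the 2 *TPT* genes changed by different amounts, the make-up of the *TPT* transcript pool shifted. Within a library, where scaling plays no part, Cz06g08130 was 1.61, 1.59 and 1.49 times the level of Cz03g25010 at 0 h and 2.83, 3.26 and 4.76 times at 6 h. The ratio increased 2.26-fold on average, and no 6 h library overlapped the 0 h libraries (exact two-sided permutation p = 0.1, the smallest that 3 against 3 can give). The share of Cz06g08130 in summed *TPT* FPKM went from 61.0 ± 1.01 to 77.7 ± 4.49% (SD, n = 3).

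Summed over both genes, *TPT* stood at 309, 317 and 356 FPKM at 0 h and at 1297, 1302 and 1104 FPKM at 6 h. The mean sum was 3.77 times higher at 6 h, with all 6 h libraries above all 0 h libraries (exact two-sided permutation p = 0.1). On the scaled log2 scale the sum differed by 2.22, and by 1.78 to 1.91 under the other scalings.

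**Figure D2:**
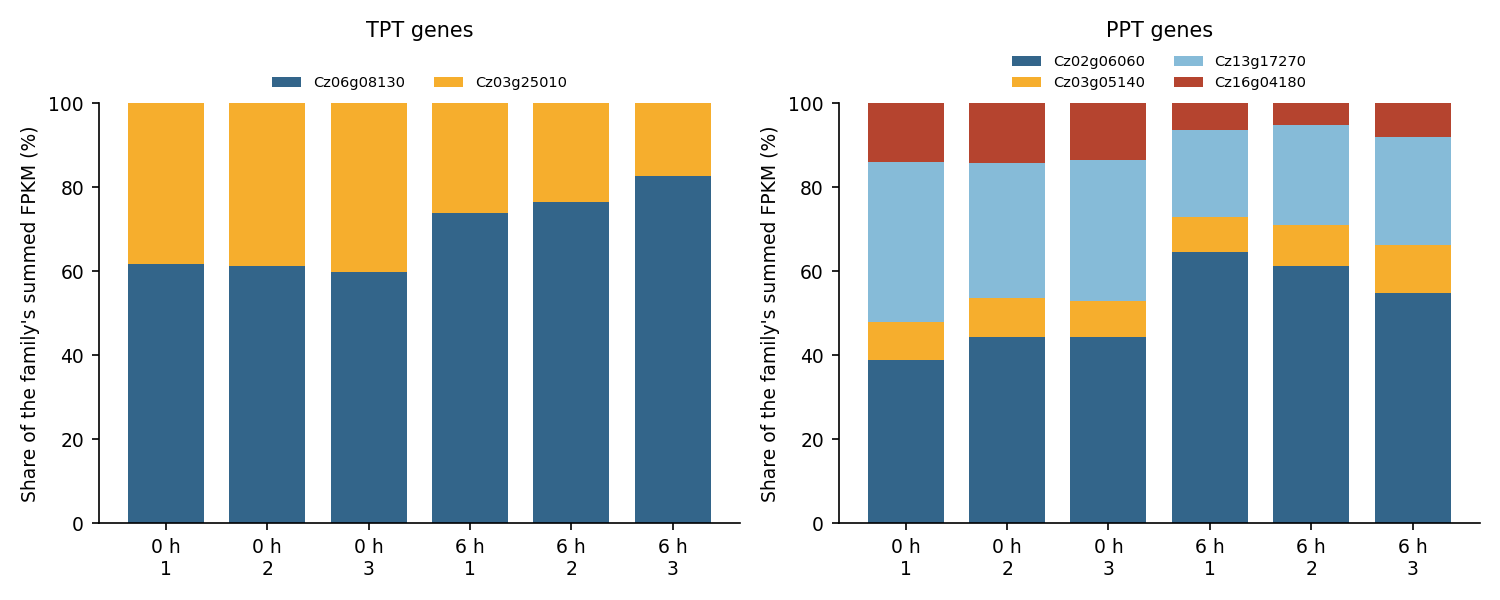
Share of each gene (vertical axis, percent) in the summed FPKM of the *TPT* genes (left) and the *PPT* genes (right), 1 bar per library. Cz06g08130 held 59.8 to 61.7% of *TPT* FPKM at 0 h and 73.9 to 82.6% at 6 h, and Cz02g06060 went from 38.9 to 44.3% of *PPT* FPKM to 54.9 to 64.6%.

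The 4 *PPT* genes, annotated as phosphoenolpyruvate/phosphate translocators, did not move together. Only Cz02g06060 was called, and it rose. It had 78.1, 80.0 and 88.5 FPKM at 0 h and 178, 165 and 134 FPKM at 6 h. All 6 h libraries were above all 0 h libraries, with replicate 3 the lowest of the 6 h group. The log2 fold change was 1.25 (SE 0.14; adjusted p = 0.000405, limma). That call depended on the scaling, since the log2 fold change was 0.94 without scaling or with the upper quartile and 0.81 with TPM, each under the limit of 1.

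Cz03g05140, the only *PPT* gene with a predicted chloroplast location, was the least abundant transporter gene at 0 h. It had 18.0, 16.9 and 17.0 FPKM at 0 h and 22.9, 25.7 and 27.7 FPKM at 6 h. The times did not overlap, and the difference was small. A log2 fold change of 0.86 (SE 0.12, 95% interval 0.57 to 1.15) had a limma adjusted p of 0.00109, but stayed under the size limit, and the gene was not called. Under TPM scaling the log2 fold change was 0.42.

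Cz13g17270, predicted in the endoplasmic reticulum, had 76.8, 57.9 and 67.4 FPKM at 0 h and 57.1, 64.2 and 63.0 FPKM at 6 h. The times overlapped, and the widest spread was among the 0 h libraries. Its log2 fold change was 0.18 (95% interval −0.14 to 0.50, limma adjusted p = 0.255), and its sign turned with the scaling, to −0.13 without scaling or with the upper quartile and to −0.26 with TPM.

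Cz16g04180 was the *PPT* gene with values below 0 h. It had 27.9, 25.6 and 26.8 FPKM at 0 h and 17.3, 14.0 and 19.5 FPKM at 6 h, without overlap. Its log2 fold change was −0.36 (95% interval −0.75 to 0.02, limma adjusted p = 0.0844) and the gene was not called. The value was negative in each of the 17 alternative settings, between −0.80 and −0.22, and in none did it reach the size limit. Its limma adjusted p was 0.00971 without scaling, 0.0141 with the upper quartile and 0.0107 with TPM. Over all settings this adjusted p ranged from 3.50e-06 to 0.230. The lowest came with library weights, whose estimation stopped before it converged.

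Ratios within a library show the spread among the *PPT* genes without any scaling. Cz02g06060 was 1.02, 1.38 and 1.31 times Cz13g17270 at 0 h and 3.11, 2.57 and 2.13 times at 6 h. Against Cz16g04180 it was 2.80, 3.12 and 3.31 times at 0 h and 10.3, 11.8 and 6.88 times at 6 h. These ratios increased 2.10-fold and 3.06-fold on average. Cz03g05140 was below Cz16g04180 in every 0 h library, at 0.645, 0.658 and 0.636 of its level, and above it in every 6 h library, at 1.32, 1.84 and 1.42 times. None of these 3 ratios overlapped between the times, each with an exact two-sided permutation p = 0.1. For the ratios over Cz16g04180 this follows from the single genes, which were separated in opposite directions.

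Most of the summed *PPT* FPKM came from the genes predicted outside the chloroplast, whereas both *TPT* genes are predicted in it. Summed *PPT* FPKM changed less than the sum of *TPT*. It was 201, 180.4 and 199.7 FPKM at 0 h and 275, 269 and 245 FPKM at 6 h, a ratio of 1.36 between the means, with no overlap (exact two-sided permutation p = 0.1). The scaled log2 difference of 0.75 became 0.44 without scaling or with the upper quartile and 0.31 with TPM. Over the same interval the share of Cz13g17270 in the *PPT* sum went from 34.7 ± 3.17 to 23.5 ± 2.52%, that of Cz16g04180 from 13.8 ± 0.406 to 6.49 ± 1.40%, and that of Cz03g05140 from 8.94 ± 0.412 to 9.74 ± 1.51% (SD, n = 3), the last with overlap.

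*GlcT* Cz01g07160, for glucose from starch, was the only transporter gene that fell. It had 343, 315 and 309.8 FPKM at 0 h and 112, 116 and 129 FPKM at 6 h. At 0 h it was the most abundant of the 8 genes in every library, and at 6 h 4 of the others were above it. The mean was 2.71 times lower at 6 h, with a log2 fold change of −1.13 (SE 0.11; adjusted p = 0.000200, limma). The change lay between −1.57 and −1.07 over the alternatives, and the gene was called in all 17.

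A further gene annotated as *GlcT*, Cz03g38140, is not one of the 8 and is given for comparison. It had 58.3, 51.3 and 56.8 FPKM at 0 h and 65.6, 66.9 and 68.3 FPKM at 6 h. Its 6 h libraries were all above its 0 h libraries, and its log2 fold change of 0.58 (SE 0.10; adjusted p = 0.00234, limma) was under the size limit. Within a library, Cz01g07160 was 5.88, 6.14 and 5.46 times as high as Cz03g38140 at 0 h and 1.71, 1.73 and 1.89 times as high at 6 h. The ratio decreased 3.28-fold on average without overlap (exact two-sided permutation p = 0.1), as follows from genes separated in opposite directions.

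*DiT2* Cz01g17230, for glutamate against malate, rose. It had 51.6, 49.8 and 56.3 FPKM at 0 h and 239, 246 and 227 FPKM at 6 h. The groups were far apart and each was tight, with means of 52.6 ± 3.34 and 237 ± 9.79 FPKM (SD, n = 3). The log2 fold change was 2.48 (SE 0.10; adjusted p = 1.11e-05, limma), and it was between 2.04 and 2.54 over the alternatives.

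The partner gene *DiT1*, Cz03g37110, for 2-oxoglutarate against malate, is not among the 8 genes and went the other way. It had 444, 459.97 and 429 FPKM at 0 h and 117, 121 and 108 FPKM at 6 h, and it fell with a log2 fold change of −1.64 (SE 0.10; adjusted p = 3.91e-05, limma). *DiT2* was 0.116, 0.108 and 0.131 of *DiT1* at 0 h and 2.05, 2.04 and 2.10 times *DiT1* at 6 h. The order of the pair was thus reversed in every library, and the ratio increased 17.4-fold on average (exact two-sided permutation p = 0.1). This was the largest change among the 8 within-library ratios computed, for each of which the Benjamini-Hochberg adjusted exact permutation p was 0.1. Since *DiT2* was separated upward and *DiT1* downward, the lack of overlap of their ratio was fixed by the single genes.

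**Figure D3:**
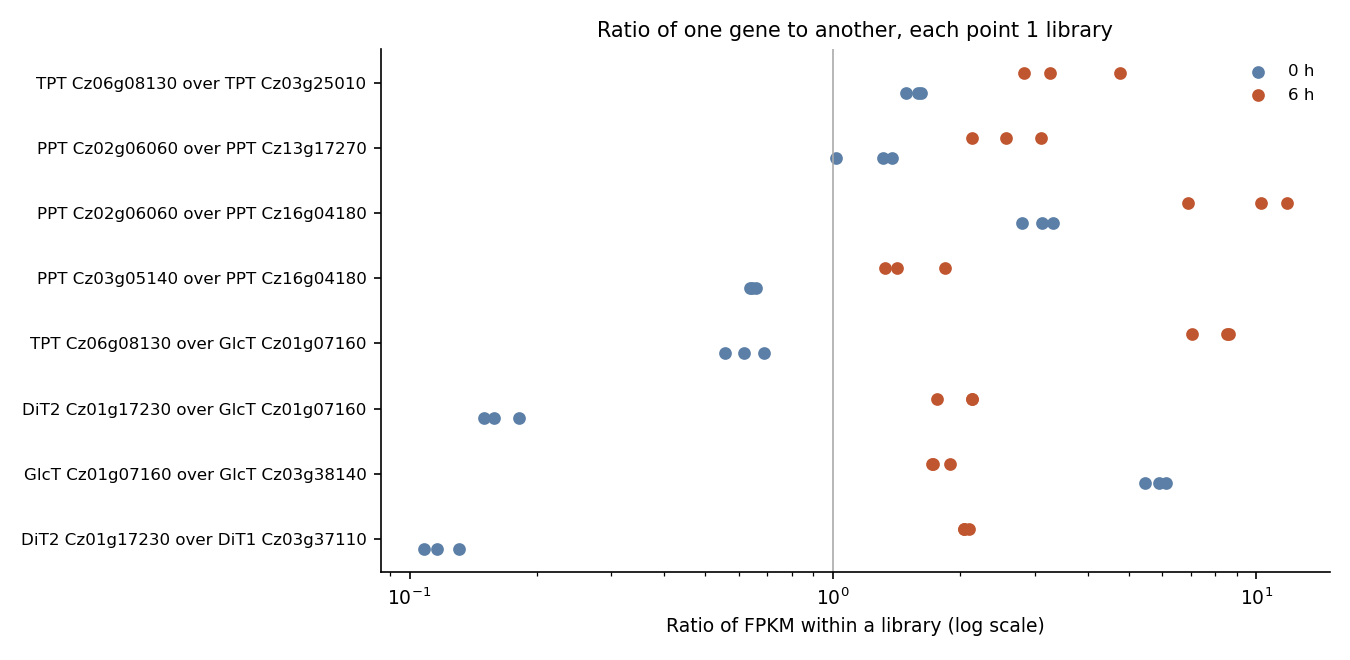
Ratio of the FPKM of one gene to that of another in the same library (horizontal axis, log scale), 1 point per library, for 0 h (blue) and 6 h (orange). No pair overlaps between the times, which follows from the single genes where these were separated in opposite directions. *DiT2* over *DiT1* went from 0.108 to 0.131 at 0 h to 2.04 to 2.10 at 6 h.

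Transporters of different substrates also changed places. *TPT* Cz06g08130 was 0.556, 0.618 and 0.688 of *GlcT* Cz01g07160 at 0 h and 8.54, 8.62 and 7.07 times its level at 6 h. *DiT2* was 0.150, 0.158 and 0.182 of the same *GlcT* gene at 0 h and 2.13, 2.13 and 1.76 times its level at 6 h. On average these ratios increased 13.0-fold and 12.2-fold, without overlap (exact two-sided permutation p = 0.1 for each). The lack of overlap follows from the single genes, as *GlcT* was separated downward and the others upward.

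At 0 h the order of the 8 genes by level was *GlcT*, *TPT* Cz06g08130, *TPT* Cz03g25010, *PPT* Cz02g06060, *PPT* Cz13g17270, *DiT2*, *PPT* Cz16g04180 and *PPT* Cz03g05140. The highest mean was 18.7 times the lowest, and the 3 values of no gene overlapped those of its neighbour. At 6 h the order was *TPT* Cz06g08130, *TPT* Cz03g25010, *DiT2*, *PPT* Cz02g06060, *GlcT*, *PPT* Cz13g17270, *PPT* Cz03g05140 and *PPT* Cz16g04180. The means then spanned 56.4-fold, and only Cz03g25010 and *DiT2* did not differ beyond their spread.

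Together the 8 genes summed to 904, 862 and 922 FPKM at 0 h and to 1923, 1933 and 1705 FPKM at 6 h, a ratio of 2.07 between the means (exact two-sided permutation p = 0.1). *GlcT* made up 36.0 ± 2.21% of the sum at 0 h and 6.46 ± 0.964% at 6 h, and Cz06g08130 went from 22.2 ± 1.05 to 51.6 ± 1.85% (SD, n = 3). In the single 6 h libraries Cz06g08130 held 49.8, 51.6 and 53.5% of the sum.

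**Figure D4:**
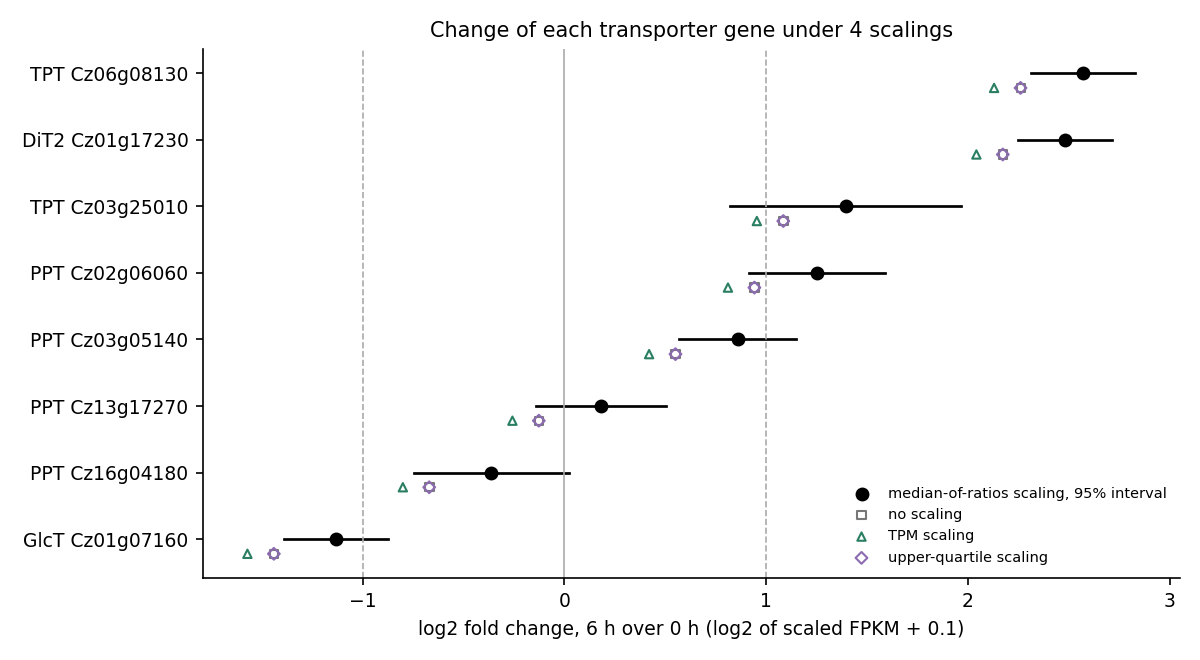
The log2 fold change of 6 h over 0 h (horizontal axis) of each transporter gene with its 95% interval (black), and under 3 other scalings (open symbols, which shift all genes to the left). Dashed lines mark the size limit of 1, which Cz03g25010 crosses with TPM, and Cz02g06060 with each of the other scalings.

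The deposited FPKM of 5 of the 8 genes were all higher at 6 h than at 0 h, and those of 2 were all lower. Among all genes tested, 27.2% were separated upward and 46.1% downward, 73.3% in all. Among the 6 h libraries, replicate 3 was nearest to the 0 h mean for 6 of the 8 genes (on log2 of deposited FPKM), Cz03g05140 and Cz13g17270 being the others. It was also the nearest for 57.8% of the 6464 called genes. Leaving out any 1 of the 6 libraries changed the call of none of the 8 genes.

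Cz06g08130 and *DiT2* had nearly the same course. The root mean square distance between their scaled log2 values, each centred on its own 0 h mean, was 0.066 over the 6 libraries, and 5 genes of all those tested were nearer to Cz06g08130 than *DiT2* was. The *TPT* gene Cz03g25010 lay closer to *PPT* Cz02g06060, at 0.17, than to the other *TPT* gene, at 0.86.

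Among the 1300 tested genes with a name in the study's annotation tables, the gene most like each member by this distance was as follows. For Cz06g08130 it was Cz09g15100, the small subunit of carbamoyl-phosphate synthase, which makes the precursor of arginine and pyrimidines (distance 0.060). For *DiT2* it was Cz08g14200, an aspartate kinase, the entry enzyme of lysine and threonine synthesis (0.049), and no other tested gene, named or not, was nearer. For *PPT* Cz02g06060 it was Cz02g01150, the bifunctional aspartokinase/homoserine dehydrogenase of the same amino acid family (0.043).

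For *TPT* Cz03g25010 the most similar named gene was Cz07g33050, a mitochondrial ribosomal protein (0.066), and for *PPT* Cz03g05140 it was Cz11g15060, the large subunit of ADP-glucose pyrophosphorylase of starch synthesis (0.045). For *PPT* Cz13g17270 it was Cz01g29020, a subunit of the endoplasmic reticulum translocon (0.078), and for *PPT* Cz16g04180 it was Cz03g10180, a starch branching enzyme (0.095). For *GlcT* it was Cz06g01130, a mitochondrial glutamate dehydrogenase (0.050). With 6 libraries in 2 groups many genes share a course, and 108 to 707 tested genes lay within 0.2 of each member, so that likeness is a description.

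**Figure D5:**
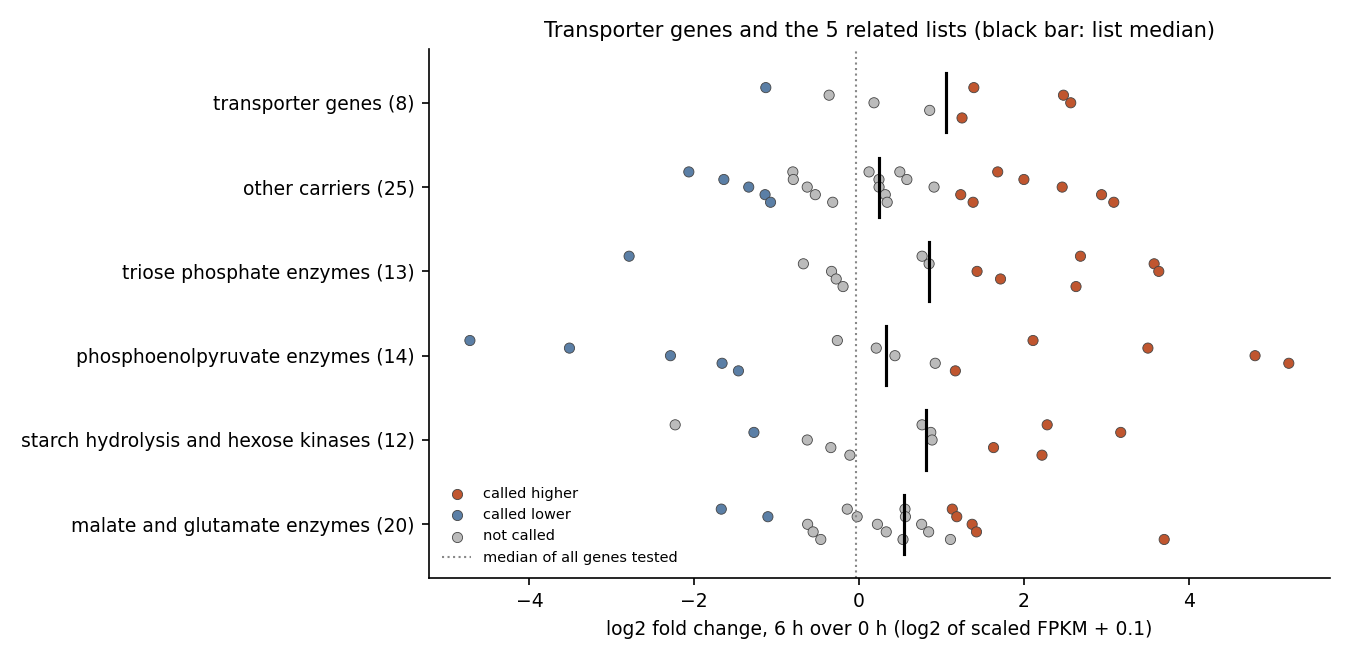
The log2 fold change of 6 h over 0 h (horizontal axis) of each gene in the transporter set and in 5 related lists, with the number of genes tested in parentheses, the list median as a black bar and the median of all genes tested as a dotted line. Each list holds genes called higher (orange) and lower (blue), and the medians run from 0.24 for other carriers to 1.05 for the transporter genes.

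The other carriers of the annotation, most of them predicted in the plastid or the mitochondrion, gave no common direction. Of 26 genes 25 were tested, and the median log2 fold change was 0.24. Called higher were 7 (28%) and lower 5 (20%), against 20.0% and 26.6% of all genes tested. The count of lower calls was 3 without 0 h replicate 2 and 8 with TPM. The called gene with the largest change was Cz16g02080, a mitochondrial dicarboxylate/tricarboxylate carrier, which went from 42.5 ± 1.28 to 297 ± 56.8 FPKM (SD, n = 3), a log2 fold change of 3.09. The largest fall was that of Cz11g14140, a mitochondrial dicarboxylate carrier for oxoglutarate and malate, with a log2 fold change of −2.06.

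Enzymes that make or use triose phosphate, the substrate of TPT, were listed with phosphoglycerate kinase, which does not act on it directly. Of these 13 genes 6 were called higher and 1 lower, with a median log2 fold change of 0.85. The shares were 46.2% and 7.69%, against 20.0% and 26.6% of all genes tested. Cz03g13070, a fructose-bisphosphate aldolase predicted in the cytosol, which cleaves hexose bisphosphate to triose phosphates, went from 41.2 ± 4.84 to 418 ± 70.1 FPKM (SD, n = 3; log2 fold change 3.64). The only fall was Cz12g24180, an NAD+-dependent glycerol-3-phosphate dehydrogenase, which draws on dihydroxyacetone phosphate, with a log2 fold change of −2.79. The count of lower calls was 2 with TPM.

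Enzymes of phosphoenolpyruvate, the substrate of PPT, split evenly, with 5 of 14 called higher, 5 lower, and a median log2 fold change of 0.32. Each count is 35.7% of the list, against 20.0% higher and 26.6% lower among all genes tested. Cz04g17050, a pyruvate kinase predicted in the cytosol, which turns phosphoenolpyruvate into pyruvate, went from 24.6 ± 2.19 to 743 ± 64.3 FPKM (SD, n = 3; log2 fold change 5.22). At the other end Cz01g40120, pyruvate phosphate dikinase, which makes phosphoenolpyruvate from pyruvate, went from 40.6 ± 3.11 to 1.20 ± 0.428 FPKM (SD, n = 3; log2 fold change −4.72).

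Enzymes of starch hydrolysis and hexose phosphorylation, on either side of GlcT, had 4 of 12 called higher, 1 lower, and a median log2 fold change of 0.82. As shares these are 33.3% and 8.33%, against 20.0% and 26.6% of all genes tested. The extremes among called genes were both isoamylases, the debranching enzymes of starch. Cz10g16050 rose with a log2 fold change of 3.18 and Cz03g36130 fell with one of −1.27, from 100.5 ± 1.16 to 33.5 ± 1.38 FPKM (SD, n = 3). The number called lower was 2 without 6 h replicate 3, 2 without scaling and 3 with TPM. Neither the hexokinase nor the glucokinase gene was called.

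Enzymes of malate and glutamate, the substrates of DiT2, had 5 of 20 called higher, 2 lower, and a median log2 fold change of 0.55. As shares these are 25% and 10%, against 20.0% and 26.6% of all genes tested. UNPLg00180, a malate dehydrogenase predicted in the cytosol, rose from 83.8 ± 5.17 to 882 ± 39.6 FPKM (SD, n = 3; log2 fold change 3.70). Cz08g04180, an NADH-dependent glutamate synthase, had 139, 127 and 106 FPKM at 0 h and 14.5, 27.5 and 75.7 FPKM at 6 h, with replicate 3 far above the other 6 h libraries (log2 fold change −1.67, SE 0.56, limma adjusted p = 0.0382). The number called lower was 1 without any one of the 0 h libraries, without 6 h replicate 1 or without 6 h replicate 2, and 3 without 6 h replicate 3. With TPM scaling 1 gene of this list was called higher, and without scaling or with the upper quartile 3 were.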

How the data were processed

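Poly-A RNA of 3 cultures at 0 h and 3 at 6 h was sequenced, 1 library per culture. The authors deposited FPKM per gene for each library, listed with 2 decimals for genes above 0. Per their methods reads were mapped with TopHat and expression was estimated with Cufflinks, whereas the submitters' processing notes name HISAT, Bowtie2 and RSEM. Which of these made the deposited FPKM is not given in the sources used here. A gene missing from a list was taken as 0. Groups came from the sample titles.

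Deposited FPKM were divided by a median-of-ratios factor (0.884 to 1.13), 0.1 was added, and the log2 values were fitted by limma 3.58.1 (R 4.3.3), using lmFit and trended eBayes on time alone, with Benjamini-Hochberg adjustment over the 13886 genes whose FPKM averaged 1 or more at 0 h or 6 h. The procedure was tested on simulated data. Sums and 8 within-library ratios were compared by exact two-sided permutation. Ratios and shares used deposited FPKM, with 0.1 added for the log2 ratios. Figures were drawn with matplotlib 3.10.9 and pandas 2.3.3, and sample records read with jsonlite 2.0.0.

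The genes named are the 8 members, the further *GlcT* and *DiT1*, in each other list the called genes with the largest and the smallest log2 fold change whose libraries do not overlap, and for each member the most similar named gene. Other lists were taken whole from the study's annotation tables, which served for names and predicted locations. Members and lists, from which the pairs for the ratios were drawn, were chosen with earlier results of these data known. Alternatives were other scalings, pseudocounts, filters and fits, and leaving out each library. No pairing of same-numbered libraries was used. They did not deviate together, which cannot show whether they are related by more than a number. No reference genome was used here, and no sequences are shown.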

Additional observations from a re-analysis of the deposited data

How the results depend on the processing

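Over 17 alternatives and the 8 transporter genes, 128 of 136 combinations of gene and setting kept the direction and the call, all 48 that leave out 1 library among them. The exceptions turned on scaling or the size limit. Cz02g06060 was no longer called without scaling (log2 fold change 0.94), with the upper quartile (0.94) or with TPM (0.81), nor Cz03g25010 with TPM (0.95). Cz13g17270 reversed to −0.13, −0.13 and −0.26 under no scaling, upper quartile and TPM. Without a limit on the fold change Cz03g05140 was also called, as were 67.4% of all genes tested. With TPM 2 members were called higher, beside 1624 of all 13886 genes tested. By construction these scalings shift all genes together.

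The scaled log2 differences of the sums were 1.91, 1.91 and 1.78 for *TPT*, 0.44, 0.44 and 0.31 for *PPT*, and 1.05, 1.05 and 0.92 for all 8 genes under no scaling, upper quartile and TPM. The 8 within-library ratios moved by less than the spread between replicates under both other pseudocounts and without any 1 library.

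In the other lists, counts moved by more than 1.5 times as follows. Without scaling and with the upper quartile, 2 starch genes were called lower and 3 malate and glutamate genes higher. With TPM, 8 other carriers, 2 triose phosphate genes and 3 starch genes were called lower, and 1 malate and glutamate gene higher. Without a fold limit, 11 other carriers were higher and 8 lower, 3 triose phosphate genes and 2 starch genes were lower, and 10 malate and glutamate genes were higher and 4 lower. Of all 13886 genes tested, 4665 were then called higher and 4696 lower. With library weights, whose estimation stopped before it converged, 2 starch genes were lower. Leaving out 1 library gave 3 to 4 other carriers, 1 to 2 starch genes and 1 to 3 malate and glutamate genes called lower. The cause was not tested for any of these.

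Replicate numbers are shared by the times, but same-numbered libraries deviated from their group means with correlations of −0.30, −0.11 and −0.49. Taken from means of 3 libraries, such correlations cannot show whether same-numbered libraries are related by more than a number. With the replicate block, 4 members were called higher and 1 lower, as without it, 1 malate and glutamate gene was called lower in place of 2, and calls over all genes went from 2772 higher and 3692 lower to 2696 and 3521. No library correlated best with its own number. The fragments behind single values are unknown, so counting error could not be given, and with 3 libraries a time the exact tests cannot fall below 0.1.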
